A study of Rattus norvegicus with 14 samples.

Results

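The Il10rb locus was examined in Methyl-Seq data from the dorsal hippocampus of 14 male Wistar rats. The locus was taken as the Il10rb gene on rat chromosome 11 (RN4 assembly, chr11:31381337-31397079) with 100 kb on each side (chr11:31281337-31497079). Members are the methylated regions that overlap this window by at least 1 bp, and 36 of the 310070 regions measured in the series do. A single region spans the start of the gene, 4 lie in the remaining gene body, 13 in the left flank (before the gene start) and 18 in the right flank (beyond the gene end). Positions are printed as the deposited table gives them, and the orientation of the gene is that of the study's own drawing.

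The study compared 3 groups. CTRL (n = 5) are age-matched rats on standard diet that received methyl scopolamine and saline. PILO (n = 4) are rats on standard diet that received methyl scopolamine and the muscarinic agonist pilocarpine (340 mg/kg) to induce status epilepticus, and were observed for 84 days. PILO+KD (n = 5) are pilocarpine rats treated in the same way but fed a ketogenic diet, which is rich in fat and low in carbohydrate. Pilocarpine animals also received diazepam to end the status, and those that did not seize at first received a further, smaller dose. No group combined the ketogenic diet with saline, so the effect of diet alone cannot be separated at this locus. Each library came from a single animal and was not pooled. A region's value is a mixture over all cells of the tissue, so a change in which cells are present and a change of methylation within cells cannot be told apart. The regions carry no cell type markers, so the tissue label was not checked.

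Il10rb encodes the beta chain of the interleukin 10 receptor. With the ligand-binding alpha chain, encoded by Il10ra, it transmits the anti-inflammatory signal of interleukin 10 through the kinases Jak1 and Tyk2 to the transcription factor Stat3. The beta chain is also shared by the receptors for interleukin 22 and the lambda interferons. In the brain, interleukin 10 is best known for restraining activated microglia. The gene stands in a cluster of class II cytokine receptor genes. In the RefSeq annotation of another rat assembly (GRCr8), the order of protein-coding genes is Olig2, Olig1, Ifnar2, Il10rb, Ifnar1, Ifngr2, Tmem50b and Son. Ifnar2 and Ifnar1 encode the chains of the type I interferon receptor, Ifngr2 a chain of the interferon gamma receptor, and Olig1 and Olig2 transcription factors of oligodendrocytes. The positions of these neighbours in RN4 were not used here, so flank regions are given by their distance from Il10rb and not assigned to a gene.

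Methyl-Seq captures DNA fragments that carry methylated CpG dinucleotides with a methyl-CpG-binding protein. More CpGs and more methylation per CpG both give more tags, so the sequence at the gene start matters for reading the values. The 250 bases before the RefSeq start of Il10rb (GRCr8, chr11:44132386-44132635, plus strand) are shown because the changed region lies over the gene start, with every CpG in capitals:

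Il10rb promoter: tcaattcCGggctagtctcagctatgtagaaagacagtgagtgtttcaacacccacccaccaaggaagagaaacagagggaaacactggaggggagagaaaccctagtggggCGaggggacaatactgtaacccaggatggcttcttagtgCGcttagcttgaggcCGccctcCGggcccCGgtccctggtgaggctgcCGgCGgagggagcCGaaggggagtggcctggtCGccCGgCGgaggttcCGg

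This stretch holds 13 CpGs, crowded towards the gene start, and 61.2% of its bases are G or C. The median over 33469 rat promoters of this length is 5 CpGs, and 72.4% of them hold as few CpGs as Il10rb or fewer. Among the related receptor genes, the same stretch holds 12 CpGs in Ifnar2, 14 in Il10ra, 15 in Ifnar1 and 28 in Ifngr2. The palindrome TTCNNNGAA, the letters of the interferon gamma-activated site that Stat factors bind, was searched on both strands from 250 bases before to 50 after each start. Il10rb holds it as TTCCGGGAA, beginning 6 bases before the start and running past the end of the printed stretch, and 8.87% of all promoters hold the palindrome in this window. Ifnar2 holds it as well, and Ifnar1, Ifngr2 and Il10ra do not. The match is a description of letters only. Whether the RefSeq start and the RN4 start are the same base was not checked. In RN4 the changed region has 248 bp before and 675 bp after the gene start. Its larger part, with the stretch that the study examined by bisulfite sequencing, is therefore not printed. The 13 CpGs are not those of the whole region.

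The tags were unevenly spread over the locus. All 36 regions together cover 18697 bp, or 8.67% of the window, and hold 6796 tags over the 14 animals. The right flank holds 49.0% of these tags, the left flank 29.7%, the gene body 13.8% and the region at the gene start 7.49%. The widest stretch without a region runs for 53055 bp directly left of the gene start, from 31328034 to 31381089. Since the regions were called where samples differed, an empty stretch does not show that DNA there is unmethylated.

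Of the 36 regions, 13 reached the tag minimum for testing (129 tags summed over all animals), namely 6 in the left flank, the region at the gene start, 1 in the gene body and 5 in the right flank. They hold 83.9% of the window's tags, are 449 to 998 bp long and had a tag in every animal. The 23 regions below the minimum have 20 to 108 tags in total, at most 20 in any animal, and 17 of them have at least 1 animal without a tag. These sparse regions were left out of the main fit, so whether the groups differ there was not tested in it. A further edgeR fit without the minimum took in all 36 regions. In PILO versus CTRL, 2 of them had p below 0.01, against 1.17% of all regions. It was 1 in PILO+KD versus CTRL (0.946%) and 0 in PILO+KD versus PILO (0.536%). None of these calls fell on a sparse region. Across the library, depth ranged from 6972700 to 12391666 tags per animal, and a single tag is worth 0.0822 to 0.154 CPM (tags per 1000000 tags of the library, after trimmed mean scaling).

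**Figure D1:**
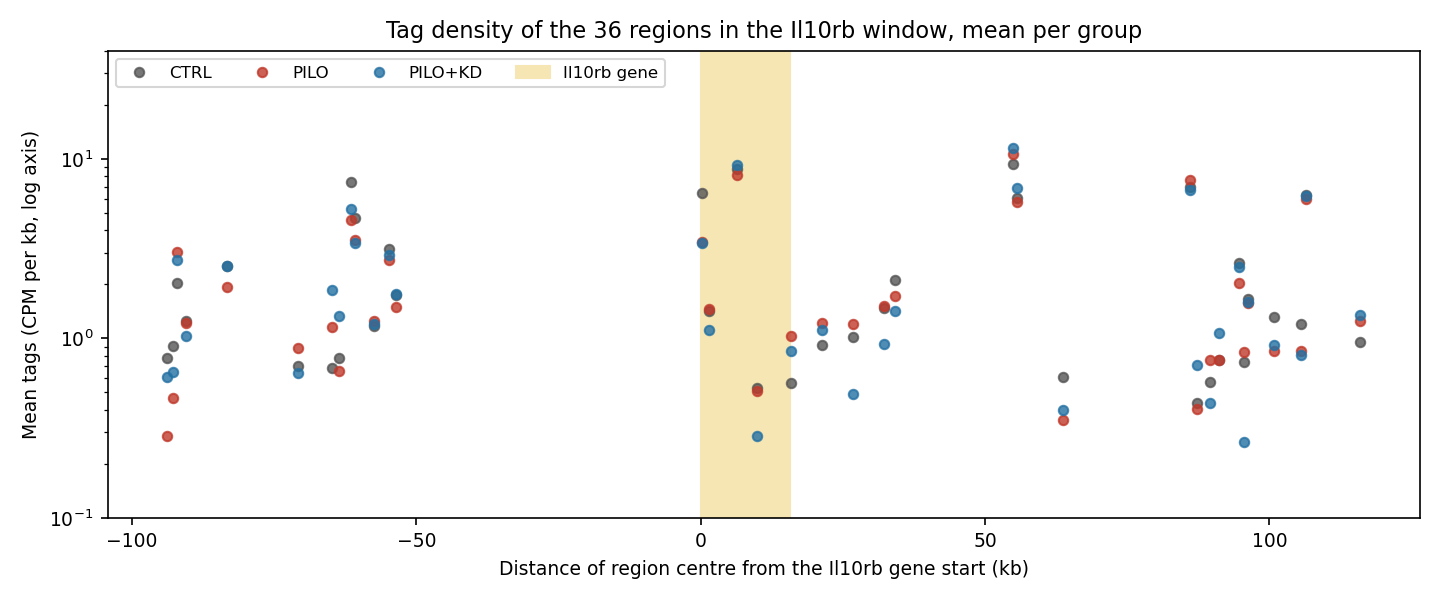
Mean tag density (CPM per kb, log axis) of each of the 36 regions of the Il10rb window against the distance of its centre from the gene start in kb, with 1 point per group (CTRL grey, PILO red, PILO+KD blue) and the gene shaded. At the gene start the CTRL point lies above the other groups' points, whose means nearly coincide, while the densest region of the gene body has all groups close together.

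The densest tested region was at 31435918-31436559 in the right flank, 54902 bp from the gene start, with a mean of 10.5 CPM per kb. Next came the region at 31387329-31388096 inside the gene, with 8.74 CPM per kb, and the right flank region at 31467003-31467667, with 7.07 CPM per kb. The region at the gene start had 4.51 CPM per kb, denser than 75.8% of all regions of the series. It is thus a moderately dense region, with a denser neighbour 6376 bp inside the gene.

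The question at the gene start was whether methylation differs between chronic epileptic and control animals and whether the diet alters it. The region at 31381089-31382012 is 923 bp long, with 248 bp before and 675 bp after the gene start, and contains the stretch that the study examined by bisulfite sequencing. The study selected Il10rb for follow-up from these same libraries, so the PILO versus CTRL test at this region is not independent evidence of its direction. The contrast of PILO+KD with CTRL uses other epileptic animals but the same 5 controls.

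Raw tags at the gene start were 66, 45, 58, 43 and 50 in CTRL 1 to 5. In PILO 2 to 5 they were 30, 44, 13 and 21. In PILO+KD they were 18, 44, 27 and 21 in animals 1 to 4 and 29 in animal 211, which the labels leave unnumbered. Raw tags overlapped only where PILO 3 and PILO+KD 2 (44 each) exceeded CTRL 4 (43), and PILO 3 is the deepest library of the series.

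After scaling for depth, CTRL animals had 6.56, 5.03, 7.47, 5.44 and 5.45 CPM, PILO animals 4.44, 3.62, 2.00 and 2.65 CPM, and PILO+KD animals 2.59, 4.63, 3.05, 2.32 and 3.07 CPM. Every epileptic animal on either diet lay below every CTRL animal. The group means were 5.99 ± 1.00 CPM in CTRL (SD, n = 5), 3.18 ± 1.07 in PILO (SD, n = 4) and 3.13 ± 0.897 in PILO+KD (SD, n = 5). The closest animals across that gap were CTRL 2 at 5.03 CPM and PILO+KD 2 at 4.63 CPM. Their exact 95% Poisson intervals, which cover counting error only, were 3.67 to 6.74 and 3.37 to 6.22 CPM, so these animals cannot be ordered from their counts.

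**Figure D2:**
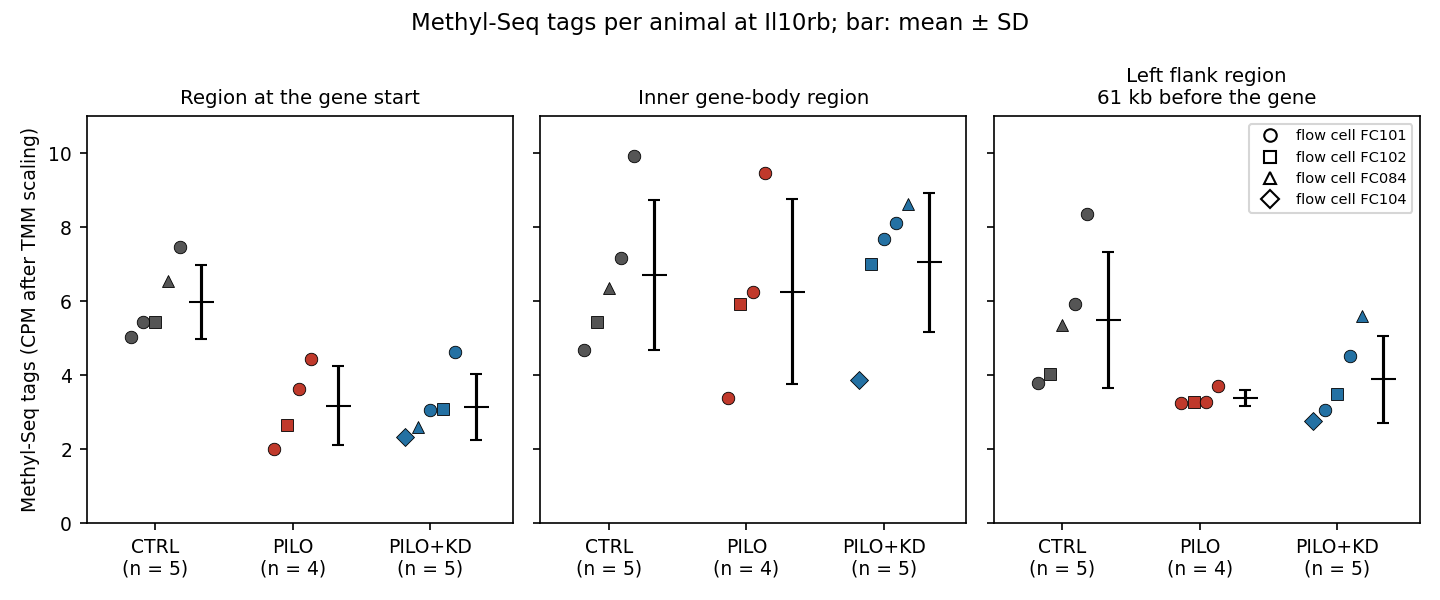
Methyl-Seq tags (CPM after scaling) of each animal at the gene start, at the denser region inside the gene and at the left flank region 61 kb before the gene, with symbols for the flow cell and bars for the mean ± SD. At the gene start all CTRL points (5.03 to 7.47) lie above all PILO (2.00 to 4.44) and PILO+KD points (2.32 to 4.63), and inside the gene the groups overlap.

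Tags at the gene start fell by 0.90 on the log2 scale in PILO versus CTRL (SE 0.24, 95% confidence interval -1.38 to -0.42). The unadjusted p was 0.000634 in edgeR's quasi-likelihood test, below the study's cut-off of 0.01, and the Benjamini-Hochberg adjusted p over all 155092 regions tested was 0.589. This was the region with the smallest p of the window, number 164 of all regions tested and number 4 of the 4438 on chromosome 11. A two-sided exact permutation test on log2 CPM gave p = 0.00794, the smallest that 4 against 5 animals allow, and 0.0119 adjusted over the 3 contrasts. No other split of these animals thus gave as large a difference, and the edgeR result did not pass adjustment over all regions. The exact test was run 39 times over the tested regions of the window and the 3 contrasts. The value of 0.0119 is not adjusted over all of these.

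In PILO+KD versus CTRL, tags at the gene start fell by 0.92 on the log2 scale (SE 0.22, 95% confidence interval -1.37 to -0.47). Here the unadjusted p was 0.000206 and the adjusted p 0.622 in edgeR's quasi-likelihood test, which placed it at number 49 of all regions tested and number 3 on chromosome 11. The exact permutation test again gave its smallest possible p, 0.00794, for 5 against 5 animals. It was 0.0119 adjusted over the 3 contrasts, and again not over all exact tests of the window.

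PILO+KD and PILO did not differ measurably at the gene start. The log2 fold change was -0.023 (SE 0.25), with p = 0.928 and adjusted p = 1.00 in edgeR's quasi-likelihood test and p = 0.992 in the exact permutation test. Its 95% confidence interval, -0.53 to 0.49, leaves room for a moderate difference in either direction, so equality of the diets was not shown. By bisulfite sequencing of a shorter stretch inside this region, the paper reports that the lower methylation in PILO was reversed in PILO+KD. Tags over the whole region did not show such a reversal, but they are a different measure and the assays were not compared here.

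Library labels begin with a code (FC084, FC101, FC102 or FC104), which is read here as the flow cell. The labels give only the code, and the groups are spread unevenly over the 4 codes. FC101 holds 3 CTRL, 3 PILO and 2 PILO+KD libraries, FC102 holds 1 of each group, FC084 holds CTRL 1 and PILO+KD 1, and FC104 holds PILO+KD 4 alone. On FC101 the CTRL animals had 5.03 to 7.47 CPM at the gene start, the PILO animals 2.00 to 4.44 and the PILO+KD animals 3.05 and 4.63. On FC102 the values were 5.45 in CTRL, 2.65 in PILO and 3.07 in PILO+KD, and on FC084 they were 6.56 in CTRL and 2.59 in PILO+KD. The epileptic animals were thus lower within each flow cell that holds both kinds. Within FC101 alone the log2 fold change was -0.80 in PILO versus CTRL (edgeR p = 0.00701, exact permutation p = 0.1) and -0.61 in PILO+KD versus CTRL (edgeR p = 0.0505, exact permutation p = 0.1). The latter missed the cut-off with 2 animals against 3, and 0.1 is the smallest p that the exact test allows in either comparison. With flow cell as a term, which fits PILO+KD 4 exactly, the values were -0.92 (edgeR p = 0.00071) and -0.82 (edgeR p = 0.00136).

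Inside the gene, the other tested region gives a comparison within the same locus and library. The region at 31387329-31388096, 767 bp long, had 6.36, 7.16, 9.91, 4.68 and 5.45 CPM in CTRL 1 to 5 and 9.47, 6.25, 3.39 and 5.93 CPM in PILO 2 to 5. In PILO+KD it had 8.63, 8.11, 7.68 and 3.87 CPM in animals 1 to 4 and 7.00 in animal 211. The groups overlapped throughout, with means of 6.71 ± 2.02 in CTRL (SD, n = 5), 6.26 ± 2.49 in PILO (SD, n = 4) and 7.06 ± 1.88 in PILO+KD (SD, n = 5).

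None of the contrasts passed the cut-off there. The log2 fold change was -0.095 in PILO versus CTRL (95% confidence interval -0.60 to 0.41) and 0.071 in PILO+KD versus CTRL (-0.40 to 0.54), with exact permutation p of 0.706 and 0.825. Between PILO+KD and PILO it was 0.17 (-0.34 to 0.67, exact permutation p = 0.532). The coefficient of variation at this region was 30.1% in CTRL, 39.8% in PILO and 26.6% in PILO+KD, where counting alone would give 13.1%, 13.8% and 12.8%. At the gene start it was 16.7%, 33.7% and 28.6% in the same order, where counting alone would give 13.8%, 19.2% and 19.0%. The coefficient was thus larger inside the gene in CTRL and PILO and slightly smaller in PILO+KD. Counting adds more at the gene start in PILO+KD, so this small difference does not show that those animals varied less inside the gene.

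The ratio of tags at the gene start to tags at this inner region was also computed, a measure free of library scaling that was chosen after the values had been seen. It was 1.03, 0.703, 0.753, 1.16 and 1.00 in CTRL, 0.469, 0.579, 0.591 and 0.447 in PILO, and 0.300, 0.571, 0.397, 0.600 and 0.439 in PILO+KD. All CTRL ratios lay above all ratios of the epileptic animals. Mean ratios were 0.930 ± 0.195 (SD, n = 5), 0.521 ± 0.0741 (SD, n = 4) and 0.462 ± 0.124 (SD, n = 5).

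On the log2 scale the mean ratio was lower by 0.82 in PILO than in CTRL (value -0.82, exact permutation test, two-sided, p = 0.0159) and by 1.03 in PILO+KD than in CTRL (value -1.03, exact p = 0.00794). Because the ratio was chosen after the values had been seen, at a locus the study selected on these libraries, these exact tests are descriptions and not independent support. Between PILO+KD and PILO the log2 difference of the ratio was -0.21 (exact permutation p = 0.397).

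**Figure D3:**
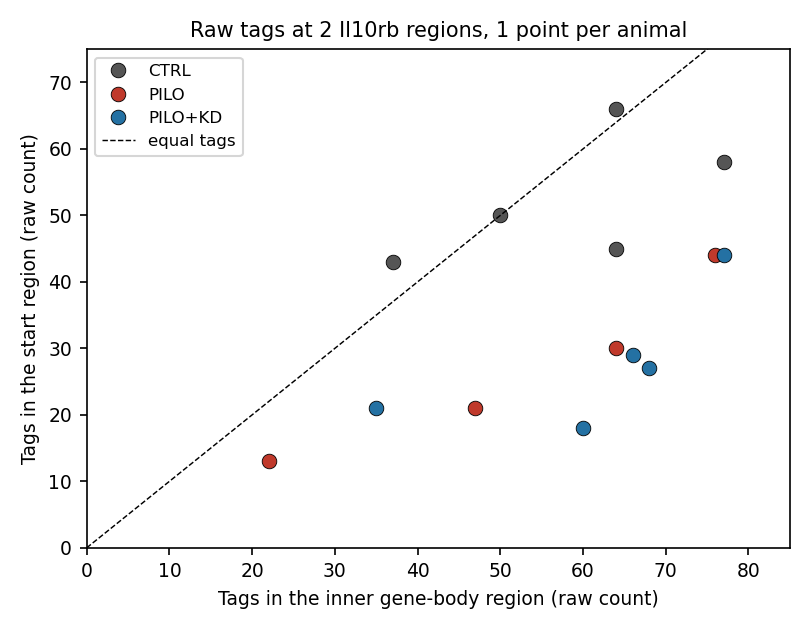
Raw tags at the gene start against raw tags at the denser region inside the gene, 1 point per animal, with a dashed line where both are equal. CTRL points lie near the line (ratios 0.703 to 1.16), and the PILO and PILO+KD points lie below it (0.300 to 0.600), whatever the total.

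A further measure sets the gene start against the whole window. It held 8.14 to 11.7% of an animal's window tags in CTRL (median 10.4%), 3.82 to 7.98% in PILO (median 5.96%) and 4.69 to 7.89% in PILO+KD (median 5.02%). The gap between CTRL 2, with 8.14%, and PILO 2, with 7.98% (exact 95% binomial interval 5.45 to 11.2%), is narrower than the counting error. The groups do not overlap on this measure, but only by a small margin.

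The other 3 regions of the gene body fell below the tag minimum and were left out of the main fit. The region at 31382553-31382898, 541 bp beyond the end of the start region, had 0 to 10 tags per animal. Those at 31391077-31391459 and at 31397037-31397547, which crosses the gene end, had 0 to 5 and 1 to 13 tags per animal. Their group means lay between 0.109 and 0.522 CPM, where a few tags decide the value.

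Among the flank regions, that at 31319426-31320164 in the left flank, 61173 bp from the gene, had the smallest p in PILO versus CTRL. It had 5.36, 5.93, 8.37, 3.80 and 4.03 CPM in CTRL 1 to 5 and 3.26, 3.29, 3.70 and 3.28 CPM in PILO 2 to 5. In PILO+KD it had 5.61, 4.53, 3.05 and 2.76 CPM in animals 1 to 4 and 3.50 in animal 211. All PILO animals lay just below the lowest CTRL animal, whereas PILO+KD animals overlapped with CTRL.

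At this flank region tags fell by 0.70 on the log2 scale in PILO versus CTRL (SE 0.24, edgeR p = 0.00745, adjusted p = 0.824, exact permutation p = 0.0317). The exact test was run 39 times over 13 regions and 3 contrasts. In PILO+KD versus CTRL the log2 fold change was -0.51 (edgeR p = 0.0299, exact permutation p = 0.127), which missed the cut-off, and without PILO+KD 1 it was -0.66, which passed it. The log2 fold change of PILO+KD versus PILO was 0.19 (exact permutation p = 0.516). The PILO versus CTRL call rested on a small margin, since it was lost without CTRL 1, CTRL 2, CTRL 3 or any of the 4 PILO animals. Without CTRL 3 the log2 fold change was -0.51, and it also missed the cut-off with flow cell as a term (-0.64), with limma-voom (-0.64) and with a replicate block (-0.62).

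The neighbouring region at 31320182-31320822, 18 bp further right, had 2.98 ± 0.721 CPM in CTRL (SD, n = 5), 2.26 ± 0.674 in PILO (SD, n = 4) and 2.16 ± 0.939 in PILO+KD (SD, n = 5). Its log2 fold changes against CTRL were -0.37 in PILO (exact permutation p = 0.167) and -0.44 in PILO+KD (exact permutation p = 0.183). Neither passed the cut-off, and all groups overlapped.

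The outermost tested region of the left flank went the other way. At 31288786-31289784 the values were 2.28, 1.79, 2.06, 1.90 and 2.07 CPM in CTRL, 2.37, 3.04, 3.70 and 3.03 in PILO, and 0.719, 3.05, 3.95, 2.32 and 3.50 in PILO+KD. All PILO animals lay above all CTRL animals, and so did all PILO+KD animals but animal 1, which had 5 tags. The log2 fold change was 0.58 in PILO versus CTRL (95% confidence interval -0.044 to 1.20, edgeR p = 0.0676, exact permutation p = 0.00794) and 0.44 in PILO+KD versus CTRL (edgeR p = 0.135, exact permutation p = 0.635). Neither passed the edgeR cut-off. The CTRL animals of this region were closer together (coefficient of variation 9.33%) than counting alone would make them (23.7%), while the edgeR model uses a spread shared between regions.

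The nearest regions to the gene were little informative. On the left, 53303 bp away, the region at 31327294-31328034 had 1.29 ± 0.438 CPM in CTRL (SD, n = 5), 1.10 ± 0.272 in PILO (SD, n = 4) and 1.31 ± 0.581 in PILO+KD (SD, n = 5), with no contrast past the cut-off. On the right, 5183 bp away, the region at 31402262-31403099 had 0 to 12 tags per animal and was not tested in the main fit.

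In the right flank no tested region passed the cut-off in any contrast. The densest region, at 31435918-31436559, had 5.97 ± 0.855 CPM in CTRL (SD, n = 5), 6.83 ± 0.835 in PILO (SD, n = 4) and 7.40 ± 1.73 in PILO+KD (SD, n = 5), a log2 fold change of 0.31 in PILO+KD versus CTRL (exact permutation p = 0.143). At 31467003-31467667 the means were 4.65 ± 0.645, 5.07 ± 0.927 and 4.44 ± 0.808 CPM in the same order. The flank regions with the smallest p in PILO+KD versus PILO were those at 31297734-31298334, 31436695-31437144 and 31475667-31476479, with log2 fold changes of 0.36, 0.26 and 0.29 and exact permutation p of 0.421, 0.563 and 0.286. None passed the cut-off. Summed over the right flank, all groups overlapped, at 27.3 ± 2.83 CPM in CTRL (SD, n = 5), 27.5 ± 1.96 in PILO (SD, n = 4) and 28.0 ± 1.80 in PILO+KD (SD, n = 5).

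**Figure D4:**
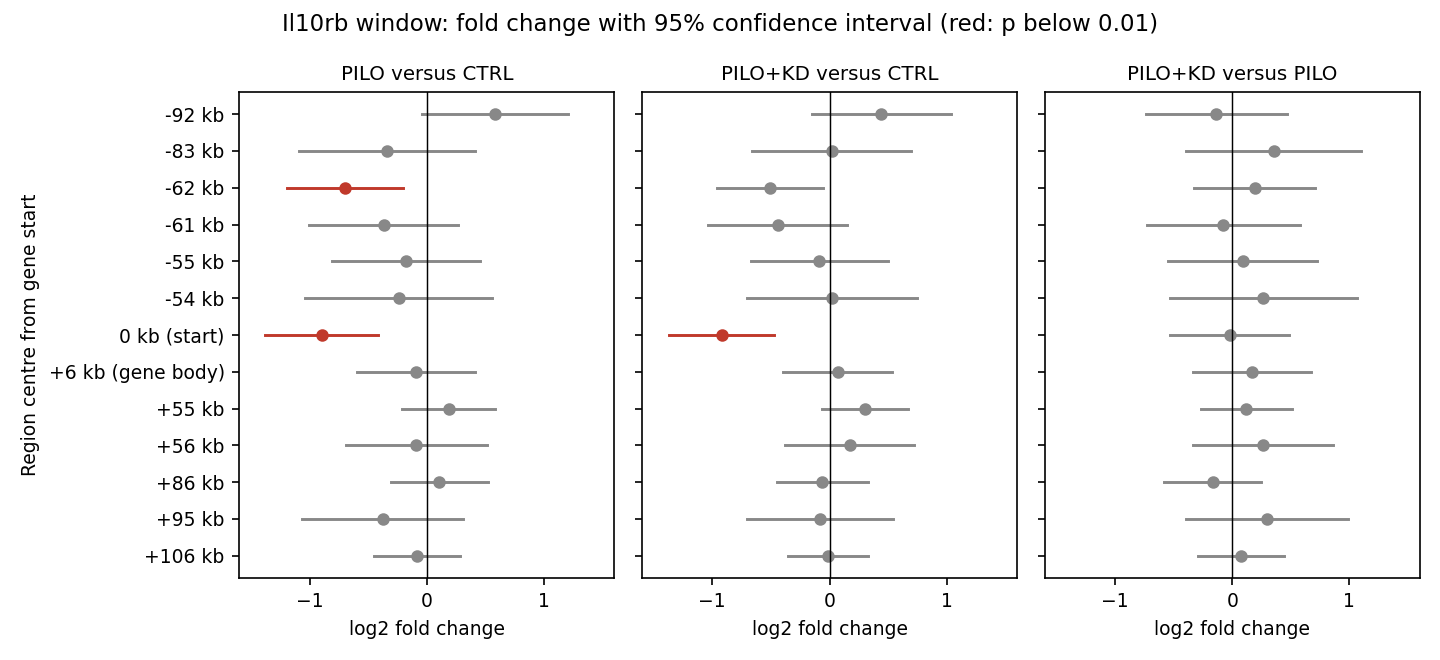
Log2 fold change with its 95% confidence interval for the 13 tested regions, ordered by the distance of their centre from the gene start, in each contrast. The gene start (red, p below 0.01) lies at -0.90 and -0.92 against CTRL and at -0.023 between the diets, and the left flank region 61173 bp before the gene passes the cut-off in PILO versus CTRL only (-0.70).

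Over the window, 2 of the 13 tested regions had p below 0.01 in PILO versus CTRL, both lower in PILO, where 1.19% of all regions tested had. In PILO+KD versus CTRL it was 1 of 13, lower in PILO+KD, against 0.92% of all regions. None of the 13 did so in PILO+KD versus PILO, against 0.351% of all regions, by edgeR's quasi-likelihood test, edgeR's exact test, DESeq2 or limma-voom. At p below 0.05 the counts were 2, 2 and 0 of 13, against 5.13%, 4.22% and 2.3% of all regions. The call at the gene start is counted in these numbers, and since the study selected the locus on these libraries, the counts say little about the flanks.

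Groups did not overlap at 3 of the 13 regions in PILO versus CTRL (2.01% of all regions tested), at 1 in PILO+KD versus CTRL (0.727%) and at 0 in PILO+KD versus PILO (0.746%). The fold change was below 0 at 10 of 13 regions in PILO versus CTRL, at 7 in PILO+KD versus CTRL and at 4 in PILO+KD versus PILO, where all regions tested were lower in 49.4%, 48.6% and 49%. The median log2 fold change over the 13 regions was -0.18, -0.011 and 0.12, against medians of 0.0038, 0.00774 and 0.00498 over all regions tested.

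Summed over the window, the levels were 58.8 ± 6.16 CPM in CTRL (SD, n = 5), 53.2 ± 2.41 in PILO (SD, n = 4) and 55.5 ± 5.62 in PILO+KD (SD, n = 5), with overlap between all groups. The left flank had 17.8 ± 2.21, 15.0 ± 2.43 and 16.4 ± 2.96 CPM and the gene body without the start region 7.69 ± 2.04, 7.48 ± 2.58 and 7.98 ± 2.12 CPM in the same order. Of these segments, the gene start was the only one in which CTRL did not overlap with either epileptic group.

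The pattern over animals most like that of the gene start was that of the left flank region at 31319426-31320164, with a Pearson r of log2 CPM of 0.614 over the 14 animals. The region inside the gene followed at 0.447 and the left flank region at 31320182-31320822 at 0.349. Over the whole series, 3053 of the 155092 tested regions had an r with the gene start at least as high as 0.614. These points share their libraries and the difference between groups, so the values are descriptions.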

How the data were processed

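Methyl-Seq libraries of hippocampal DNA from 14 rats were analysed. For each animal the authors enriched 500 ng of DNA for methylated fragments and sequenced it as 36 bp single reads. Reads were mapped to RN4 (BWA), duplicates were discarded, regions differing between pairs of samples were called (MACS 1.4.0) and merged, and tags were summed per region. The deposited values are these raw counts. Since regions were selected for differing between samples, they are not a neutral sample of the genome, and duplicate removal limits counts where tags are dense. Bisulfite sequencing, RT-PCR and mRNA-Seq were not analysed here.

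Groups and animal numbers were read from the sample labels, and flow cells were inferred from the FC codes in them. Regions with summed tags below the 50th centile (129) were removed, leaving 155092 of 310070. After TMM scaling, a quasi-likelihood model was fitted to all 14 animals with edgeR 4.0.16 (R 4.3.3), with a mean per group and no covariate (common dispersion 0.0382). A region passed the cut-off at unadjusted p below 0.01, following the study. Benjamini-Hochberg values over all tested regions are given beside it. Single regions were also tested by exact permutation of log2 CPM (prior count 2). The fit was tested on simulated counts with known changes.

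Named regions were those overlapping the gene or its bisulfite amplicon, the nearest on each side, per contrast the 3 flank regions with the smallest p and any past the cut-off, the 3 densest, and the 3 most correlated with the gene start. The members, lists and rules were chosen with earlier results of these data known. Alternatives used other scalings, filters and flank widths, flow cell, DESeq2 1.42.0, limma-voom (limma 3.58.1), edgeR's exact test, a replicate block, and leaving out each animal. Promoter sequences and gene order are from RefSeq (GRCr8), matched by symbol for all 5 receptor genes.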

Additional observations from a re-analysis of the deposited data

Results flagged for a closer look

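In the left flank region at 31319426-31320164, PILO 4 had 3.70 CPM, while the other PILO animals lay close together between 3.26 and 3.29 CPM. The gap between PILO 4 and the nearest animal took up 92.8% of the group's range. A single tag is worth 0.154 CPM in that library, and all 4 values lay below the lowest CTRL animal (3.80 CPM). This was the only such value among 48 groups of animals examined over 15 named regions and the tag ratio, where chance alone marks about 5% of groups.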

How the results depend on the processing

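At the gene start, the fall in PILO versus CTRL kept its direction and stayed past the cut-off under all edgeR, DESeq2 and limma alternatives, from -1.07 to -0.75 on the log2 scale when an animal was left out. The fall in PILO+KD versus CTRL ranged from -1.11 to -0.83 without single animals and lost the cut-off within FC101 (-0.61). The exact tests gave p from 0.0179 to 0.0286 (PILO) and from 0.00794 to 0.0159 (PILO+KD) without single animals. Each of these PILO values is the smallest that the remaining animals allow, so their range reflects only the number of animals. Within FC101 the exact tests gave p = 0.1 for both, the smallest that 3 against 3 or 2 against 3 animals allow. PILO+KD versus PILO, near 0, changed sign within FC101 (0.19), with flow cell as a term (0.10) and without single animals (-0.21 to 0.15). Its exact test gave p = 0.976 with opposite sign on total tags and 0.482 to 1 without single animals. At the region inside the gene, leaving out an animal gave -0.34 to 0.093 for PILO versus CTRL, -0.030 to 0.25 for PILO+KD versus CTRL and -0.022 to 0.41 for PILO+KD versus PILO.

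In PILO versus CTRL the count of 2 of 13 regions past the cut-off became 1 of 13 with limma-voom, flow cell as a term or the replicate block. Of all regions tested, 1.12%, 1.25% and 1.28% passed in these fits. With 50 kb flanks it was 1 of only 4 tested regions, against 1.19% of all regions in the main fit. Without single animals it was 1 to 2 of 13, against 0.932% to 1.43% of all regions. The count of 1 of 13 in PILO+KD versus CTRL became 0 of 13 within FC101 (0.612% of all regions) and 2 of 13 at p below 0.05 (4.22%). Without single animals it was 1 to 2 of 13, against 0.634% to 1.09% of all regions. Replicate numbers recur between groups for different rats. Same-numbered animals had mean correlations of 0.010 (CTRL and PILO), -0.0080 (CTRL and PILO+KD) and 0.13 (PILO and PILO+KD). Other pairs had -0.0020, 0.0022 and -0.021 in the same order. Only 4, 4 and 3 same-numbered pairs exist, too few to settle whether the numbers pair animals. With the replicate block the gene start gave -0.94, -0.98 and -0.042 in the 3 contrasts, and the left flank region in PILO versus CTRL, the region lost from the count, gave -0.62. Which property of each alternative moved these values, other than fewer animals or regions, was not tested. Depth limits the 23 sparse regions, and 13 to 66 tags per animal set the precision at the gene start.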
